A study of Mus musculus with 4 samples.

Results

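DEAD and DEAH box RNA helicases are ATP-driven enzymes named for the amino acid letters of a conserved motif. They unwind short RNA duplexes or strip proteins from RNA, and family members act in splicing, export, translation, decay and ribosome assembly. N6-methyladenosine (m6A), the most common internal mark of messenger RNA, is placed by the METTL3 complex, which favours a GAC or AAC centre, and is read by YTH proteins. The listed m6A sites in the transcripts that encode the helicases are described here. The members were all listed sites whose gene name began with Ddx or Dhx followed by a digit. They comprised 49 distinct sites in 16 genes, of 10598 distinct sites in 5526 named genes and 25595 distinct sites in all.

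The sites came from cortical astrocytes, the glia that clear neurotransmitter, and cortical microglia, the brain's own macrophages, each with 2 libraries. All groups shared the genotype APOBEC1-YTH, which joins the deaminase APOBEC1 to the YTH domain that binds m6A, and all mice were 10 weeks old when tamoxifen began, at 20 mg/kg every 24 hours for 5 days, with collection 7 days after the last dose. The promoter or Cre that drives the transgene, the number of mice in each library and whether replicates came from separate mice were not stated in the labels. Sorting used antibodies to ACSA2 for astrocytes and to CD11b for microglia. In the GLORI assay unmethylated adenosine is deaminated and read as G, so the level of a site is the percentage of reads still carrying A. A site that is not listed may be unread, too low to be called or without the mark, and in bulk libraries fewer cells of a type and less RNA per cell cannot be told apart.

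The libraries did not all follow their labels. Of 15 astrocyte markers, 13 had a listed site in astrocyte 1, 0 in each of astrocyte 2 and microglia 1, and 10 in microglia 2, with 52, 0, 0 and 40 sites. Of 15 microglia markers, 1, 12, 13 and 1 had a site in the same order of libraries, with 1, 27, 37 and 1 sites. The marker sites of the libraries labelled astrocyte 2 and microglia 2 therefore ran against their labels, and every direction between the types below is also given in the replicate 1 libraries alone. Of 10 oligodendrocyte markers 8 had a site in astrocyte 1, 8 in microglia 2 and 0 in the other two. Of 10 neuron markers 1 had a site, in astrocyte 1. Of 8 endothelial and mural markers 1 had a site in astrocyte 1 and 2 had one in microglia 2, and of 8 border macrophage and blood myeloid markers 1 had a site in each of astrocyte 2 and microglia 1. The part of such cells in the helicase sites was not tested. The libraries listed 4790, 2348, 1066 and 3782 sites in named genes for astrocyte 1, astrocyte 2, microglia 1 and microglia 2. Read depth is unknown.

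Helicase genes had 20 listed sites in 9 genes of astrocyte 1, 12 in 8 genes of astrocyte 2, 5 in 5 genes of microglia 1 and 27 in 11 genes of microglia 2. These were 0.418% of the named-gene sites of astrocyte 1 (exact 95% binomial interval 0.255% to 0.644%), 0.511% in astrocyte 2 (0.264% to 0.891%), 0.469% in microglia 1 (0.152% to 1.09%) and 0.714% in microglia 2 (0.471% to 1.04%). The intervals cover the counting of sites only and overlap for all 4 libraries. A RefSeq table of GRCm38.p6, used for names alone, holds 53 genes of the family, and all 16 listed names matched it. A site in at least 1 library was thus listed for 30.2% of the family, beside 22% of all 21900 protein-coding genes of that table. By library the share of the family with a site was 17%, 15.1%, 9.43% and 20.8%, beside 12.8%, 6.87%, 3.07% and 10.8% of protein-coding genes. None of these shares, nor those by role below, accounts for which genes were expressed, and no difference between them was tested. The other 37 family genes had no listed site, among them Ddx1, Dhx9, Dhx15, Dhx36 and Ddx46, and none of the innate sensors Ddx58, Dhx58 and Ddx60 was listed.

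**Figure D1:**
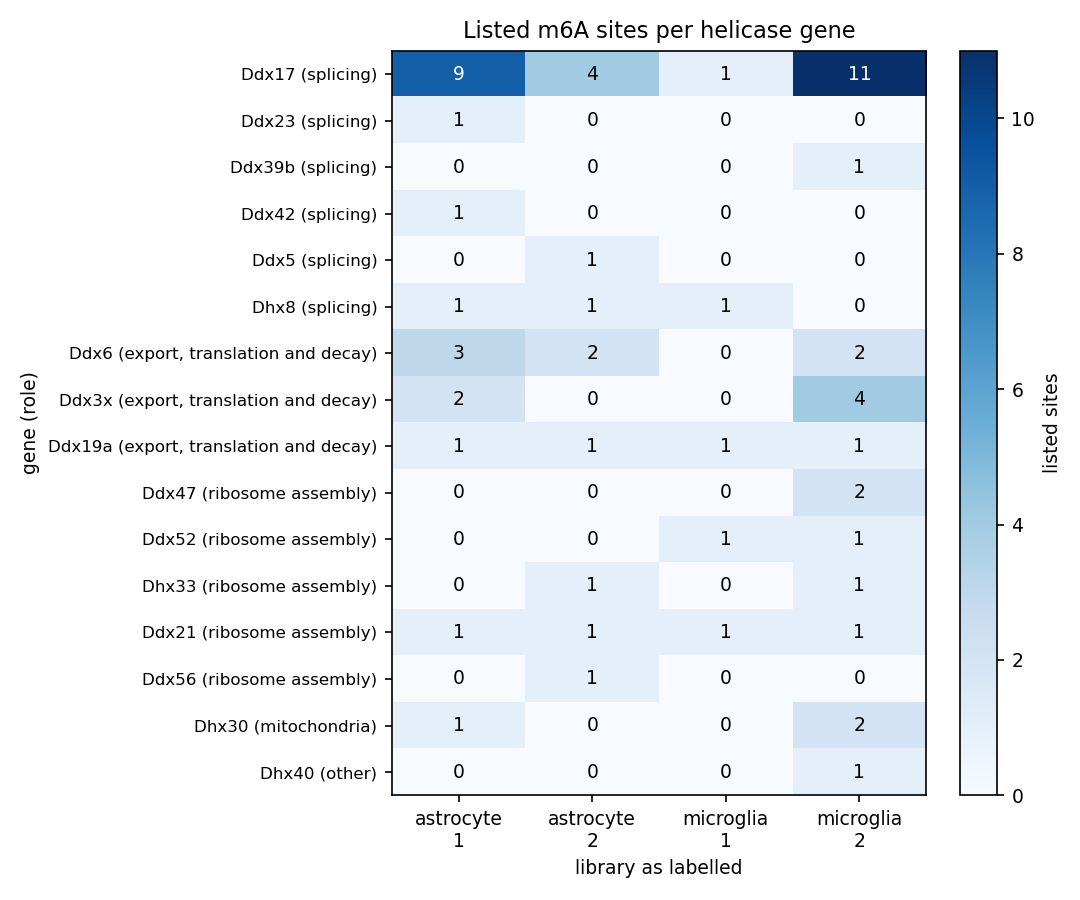
Listed m6A sites per helicase gene (rows, grouped by role) in each of the 4 libraries (columns, as labelled); darker blue and the printed digit give the number of sites. Ddx17 had 9, 4, 1 and 11 sites, Ddx19a and Ddx21 had 1 in every library, and every other gene had a site in only some libraries.

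The bases around the modified A are the only sequence in the deposited tables. They are shown because they are the local context in which the mark was read, with the A in the middle position. Of the 49 helicase sites, 28 read GAC and 21 read AAC, so that AAC made up 42.9% of the helicase sites and 32.7% of all distinct named-gene sites. By library the AAC share was 45.0%, 41.7%, 40.0% and 40.7% of helicase sites, beside 32.4%, 35%, 43.2% and 30.6% of all named-gene sites in astrocyte 1, astrocyte 2, microglia 1 and microglia 2. The helicase share was the higher in all libraries but microglia 1, on 9, 5, 2 and 11 AAC sites in the same order. Ddx17 alone supplied 10 of the 21 AAC sites and 10 of the 28 GAC sites. The difference from all named-gene sites was not tested. All 64 library entries of helicase sites were in upper-case letters, the form in which genome files write sequence outside masked repeats, while 5.14%, 5.96%, 11.8% and 4.26% of named-gene sites had a lower-case letter. Positions below are in mm39, and whether a site lies in an exon, an intron or a UTR was not determined.

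Among helicases of the spliceosome and its cofactors, 6 of 13 genes had sites, beside 22% of protein-coding genes, and Ddx17 held most of these sites. Ddx17, which with its paralog Ddx5 acts as a cofactor of transcription, splicing and microRNA processing, had 20 distinct sites, 40.8% of the family total. Only 3 of the 5526 named genes had more distinct sites, and 20 or more were listed for 0.0724% of named genes. Astrocyte 1 listed 9 of them, astrocyte 2 listed 4, microglia 1 listed 1 and microglia 2 listed 11. Genes with more sites than Ddx17 numbered 9 in astrocyte 1, 22 in astrocyte 2, 85 in microglia 1, where Ddx17 tied with 854 others, and 1 in microglia 2. The replicate 1 libraries alone gave 9 and 1, in libraries whose named-gene sites numbered 4790 and 1066.

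Ddx17 levels were low for the family. In astrocyte 1 they ran between 10.9% and 66.7% with a median of 22.7%, and in astrocyte 2 between 32.1% and 80.0% with a median of 55.0%. The single Ddx17 site of microglia 1 stood at 44.4%, and in microglia 2 the sites ran between 12.5% and 55.6% with a median of 23.5%. No Ddx17 entry reached 100%. Low levels were not limited to Ddx17: in genes with 5 or more sites in a library, the median over all named-gene sites was 44.7% in astrocyte 1 and 40.0% in microglia 2, against 80.0% and 60.0% in genes with 1 site. Both Ddx17 medians lay below those of the genes with 5 or more sites.

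The Ddx17 sites spread over 13170 bases of chromosome 15 on the minus strand, between positions 79412159 and 79425329. Since the gene is read on the minus strand, the lower coordinate is the 3′ end. The 2000 bases next to the 3′-most site held 8 sites, of which 3 were listed in more than 1 library. The next 2000 bases held 0 listed Ddx17 sites, and the stretch 4000 to 8000 bases away held 9 sites. The remaining 3 sites lay farther 5′. Of the 19 gaps between neighbouring sites 12 were at most 500 bases and the shortest was 14 bases, between an AAC at 79417496 listed in astrocyte 2 and a GAC at 79417510 listed in microglia 2. Over all named genes 42% of such gaps were at most 500 bases. Within a given length, more sites give shorter gaps on average by construction. The 3′ stretch had 5 GAC and 3 AAC sites, and the stretch 4000 to 8000 bases away had 3 GAC and 6 AAC.

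**Figure D2:**
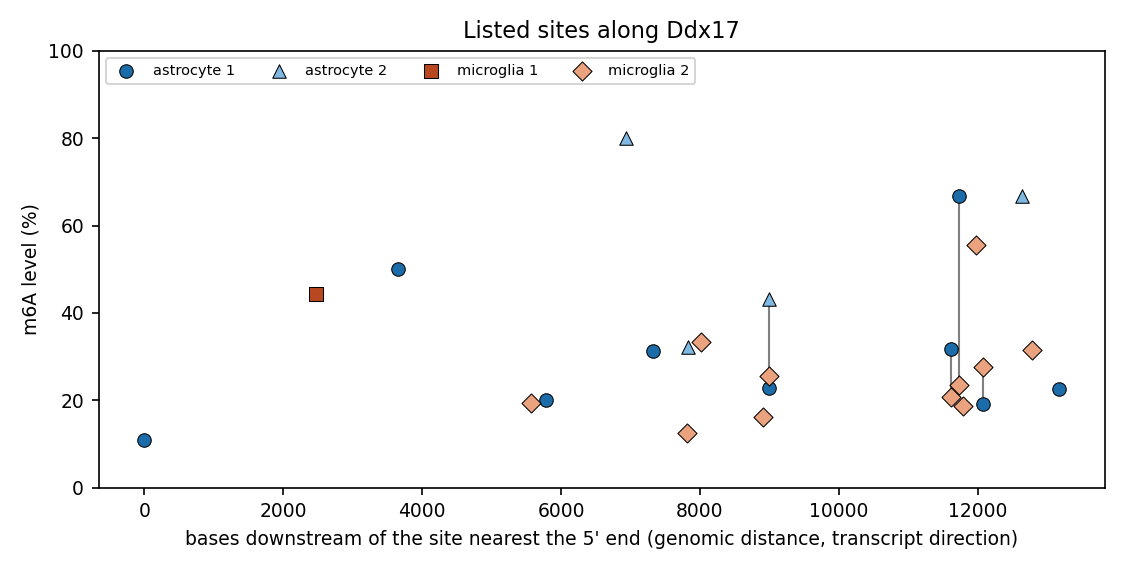
Level (percent of reads still A) of each listed Ddx17 site against genomic distance in bases, in transcript direction, from the site nearest the 5′ end; colours and shapes mark the 4 libraries and grey lines join the same position in different libraries. The stretches 0 to 2000 and 4000 to 8000 bases from the 3′-most site, unequal in length, held 8 and 9 sites. They held 3 and 1 of the shared positions.

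Of the 20 Ddx17 positions 4 recurred. The AAC at 79416333 was listed at 22.7% in astrocyte 1, 43.2% in astrocyte 2 and 25.6% in microglia 2. The other shared positions were listed in astrocyte 1 and microglia 2 alone. The GAC at 79413248 stood at 19.2% in astrocyte 1 and 27.7% in microglia 2, and the GAC at 79413718 at 31.8% and 20.7%. The AAC at 79413601 stood at 66.7% in astrocyte 1 and 23.5% in microglia 2. These libraries carry different labels but both had astrocyte marker sites. A difference of 43.1 points or more, as at 79413601, occurred at 16 of the 368 named-gene sites below 100% in both of these libraries, where the SD of the difference was 20.1 points. At 30 points or more, a bound chosen after the values were seen, 2 of 6 helicase sites differed, beside 16.6% of the 368 sites.

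Dhx8, which releases the spliced messenger RNA from the spliceosome, had 1 site, a GAC at position 101631497 of chromosome 11 on the plus strand. It was listed at 100% in astrocyte 1, astrocyte 2 and microglia 1, and was not listed in microglia 2. The remaining splicing genes each had 1 site in 1 library. Ddx23, a helicase of the tri-snRNP, had a GAC at position 98549186 of chromosome 15 at 60.0% in astrocyte 1. Ddx42, which associates with the branch-site recognition complex, had a GAC at position 106132422 of chromosome 11 at 42.9% in the same library. Ddx5, the paralog of Ddx17, had a GAC at position 106671328 of chromosome 11 at 42.9% in astrocyte 2. Ddx39b, which loads both splicing and export factors, had a GAC at position 35462172 of chromosome 17 at 21.1% in microglia 2. Ddx5 thus had 1 listed site where its paralog had 20.

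Among helicases of export, translation and decay 3 of 11 genes had sites, beside 22% of protein-coding genes. Ddx19a belongs to the nuclear pore helicases whose role in stripping proteins from exported messenger RNA is best known from Dbp5 of yeast. Its only site, a GAC at position 111701376 of chromosome 8 on the minus strand, was listed in all 4 libraries, at 58.8% in astrocyte 1 and 45.5% in astrocyte 2, against 75.6% in microglia 1 and 56.0% in microglia 2. The values of the 2 labels overlapped, and the lowest and the highest came from astrocyte 2 and microglia 1, the libraries with microglia marker sites. By label the mean was 52.1% ± 9.42 over the astrocyte libraries and 65.8% ± 13.9 over the microglia libraries (SD, n = 2 each). These means differed by -13.7 points (p = 0.667 in a two-sided exact permutation test). With 2 libraries against 2 that test cannot give a p below 0.333. In the replicate 1 libraries alone the levels were 58.8% in astrocyte 1 and 75.6% in microglia 1. Over all 4 libraries the level was 59.0% ± 12.5 (SD, n = 4).

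The level of each site listed in all 4 libraries was compared between the types with limma on log2 odds, fitted over all such sites. At a Benjamini-Hochberg adjusted p under 0.05, limma called 0 of 354 sites tested (0% called), with 16 at an unadjusted p under 0.05. By marker sites the libraries of each label differ, so a difference between the cell types enters the spread within each label. The 0 calls therefore say nothing on astrocytes against microglia. Ddx19a was the only helicase site in this test. Its log2 odds difference, astrocyte minus microglia, was -0.87 ± 0.78 (SE; limma, unadjusted p = 0.335, adjusted p = 0.679). By label the site was lower in the astrocyte library of each replicate, by 16.8 points in replicate 1 and by 10.5 points in replicate 2. The marker sites of the replicate 2 libraries ran against their labels, and read by those markers the replicate 2 direction is the opposite, so no direction between the cell types can be drawn. Of the named-gene sites below 100% in both members of these pairs, 15 of 58 and 51 of 111 differed by as much or more. Ddx19a has a neighbouring paralog, Ddx19b, which had no listed site. How reads that fit both genes were assigned was not stated, so the level may draw on either.

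Ddx6 holds messenger RNA in a repressed state and promotes decapping. It had 6 distinct sites within 3187 bases of chromosome 9 on the plus strand, 3 in astrocyte 1, 2 in astrocyte 2 and 2 in microglia 2, and none listed in microglia 1. The GAC at 44548390 stood at 100% in both astrocyte 2 and microglia 2. The AAC at 44548606, listed only in astrocyte 1, also stood at 100%, and the GAC 52 bases farther 3′, at 44548658, stood at 50.0% in the same library. The other Ddx6 levels were 76.5% in astrocyte 1, 33.3% in astrocyte 2 and 42.9% in microglia 2. Each library that listed Ddx6 thus had a site at 100% and another at 50.0% or lower. Depth is unknown, so a level of 100% may rest on few reads.

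Ddx3x, an X-linked helicase that aids initiation on structured leaders, had 5 distinct sites within 2249 bases of chromosome X on the plus strand. The 2 sites of astrocyte 1 stood at 57.1% and 57.9%, and the 4 sites of microglia 2 between 20.8% and 60.0%. The shared position, the GAC at 13158011, stood at 57.9% in astrocyte 1 and 20.8% in microglia 2. A difference of this size, 37.1 points, or more was found at 32 of the 368 named-gene sites below 100% in both libraries. In microglia 2 the GAC at 13157798 and the AAC 24 bases 3′ of it both stood at 33.3%. Neither astrocyte 2 nor microglia 1 listed a Ddx3x site, and its Y-linked paralog Ddx3y had none listed.

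**Figure D3:**
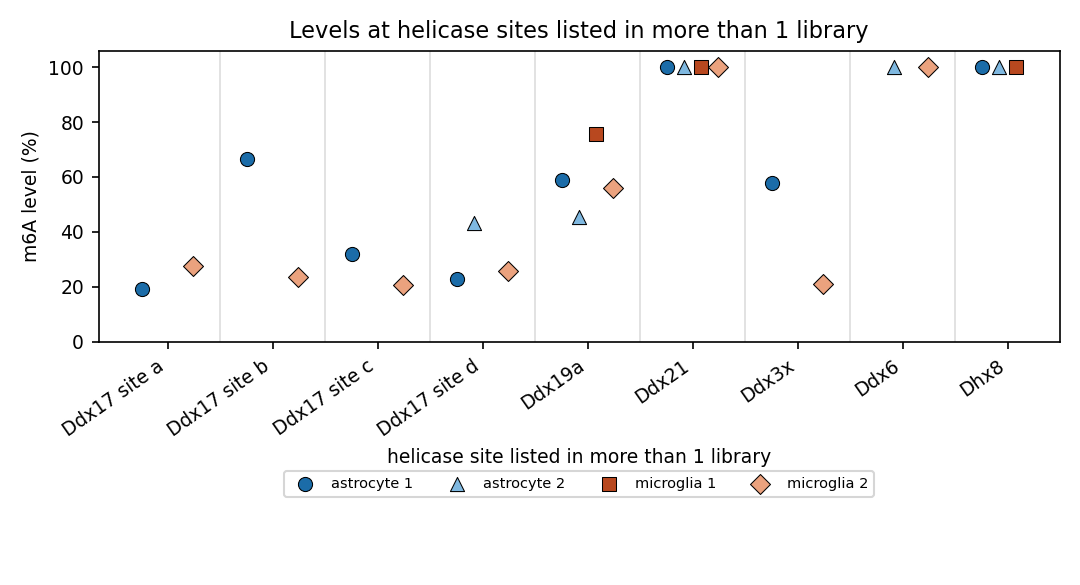
Level (percent of reads still A) in each library at the 9 helicase sites listed in more than 1 library; Ddx17 sites a to d run 3′ to 5′, and a missing symbol means the site was not listed there. The sites of Ddx21, Ddx6 and Dhx8 stood at 100% wherever listed, Ddx19a lay between 45.5% and 75.6%, and Ddx17 site b and Ddx3x differed most between astrocyte 1 and microglia 2.

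Among helicases of ribosome assembly 5 of 16 genes had sites, beside 22% of protein-coding genes. Of their 11 library entries 8 stood at 100%, and 4 of these were the single Ddx21 site, read in each library. Over all named-gene sites 27.3%, 37.9%, 60.3% and 15.3% stood at 100% in astrocyte 1, astrocyte 2, microglia 1 and microglia 2. Ddx21, a nucleolar helicase that binds ribosomal RNA and small nucleolar RNAs, had 1 site, an AAC at position 62416392 of chromosome 10 on the minus strand, listed at 100% in all 4 libraries. The libraries of each type tie at this site, so it was left out of the reported limma fit, and its level did not vary between libraries. Ddx52, whose yeast counterpart Rok1 acts in small subunit assembly, had AAC sites at 100% in microglia 1 and in microglia 2, but at positions 83839355 and 83853479 of chromosome 11, 14124 bases apart. Dhx33, which acts in ribosomal RNA synthesis, had an AAC at position 70877950 of chromosome 11 at 100% in astrocyte 2 and a GAC at 70877742 at 100% in microglia 2, 208 bases apart. Ddx56, a nucleolar helicase, had a GAC at position 6214724 of chromosome 11 at 91.7% in astrocyte 2. Ddx47, which acts in ribosomal RNA processing, had GAC sites at positions 135000485 and 135000510 of chromosome 6 in microglia 2, 25 bases apart, at 55.6% and 71.4%.

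The mitochondrial ribosome assembly factor Dhx30 had 3 sites in 28638 bases of chromosome 9, at 36.4% in astrocyte 1 (position 109942142) and at 50.0% and 83.3% in microglia 2 (109913504 and 109916910). Dhx40 had 1 site, an AAC at position 86660292 of chromosome 11, at 100% in microglia 2. In all, 15 of the 64 library entries stood at 100%, at 9 distinct sites in 6 genes. Without sites at 100%, 40 distinct sites in 11 genes remained.

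Over helicase sites the median level of astrocyte 1 was 50.0%, that of astrocyte 2 was 73.3%, that of microglia 1 was 100% and that of microglia 2 was 33.3%. Over all named-gene sites it was 66.7%, 80.0%, 100% and 58.9%. The helicase median was the lower in 3 of the 4 libraries, and Ddx17 supplied 25 of the 64 library entries. Without Ddx17 the medians were 58.8% over 11 sites, 95.8% over 8, 100% over 4 and 58.0% over 16, lower than all named-gene sites in astrocyte 1 and microglia 2 and higher in astrocyte 2. The share of sites at 100% was 15.0%, 33.3%, 60.0% and 18.5% among helicase sites and 27.3%, 37.9%, 60.3% and 15.3% among all named-gene sites. Neither comparison was tested, since sites in 1 gene are not independent.

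**Figure D4:**
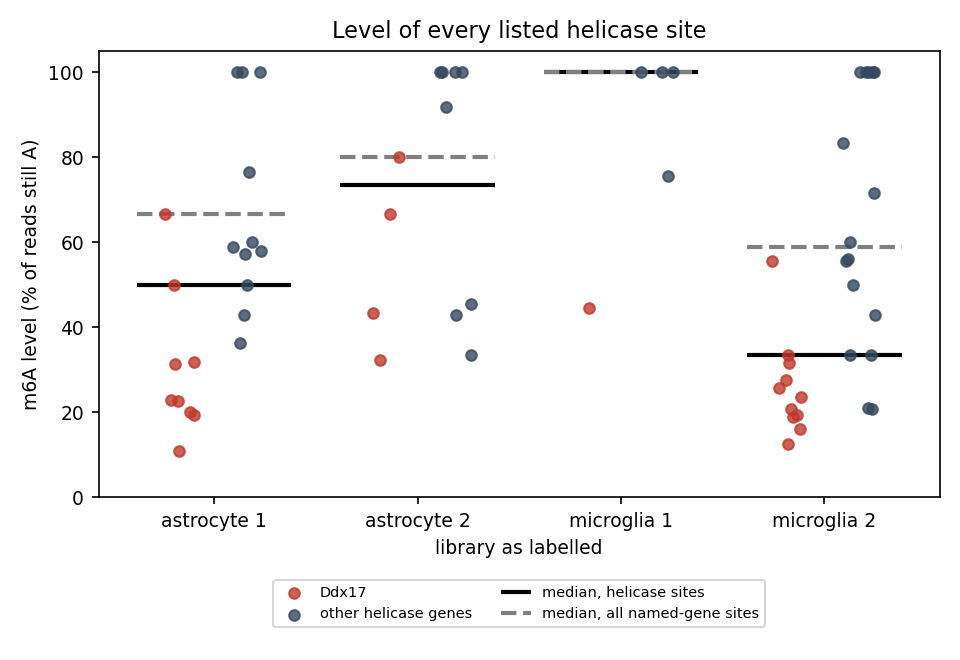
Level (percent of reads still A) of every listed helicase site in each library, with Ddx17 in red and the other helicase genes in dark grey; solid lines give the median over helicase sites and dashed lines the median over all named-gene sites. Ddx17 points lie mostly below 35% in astrocyte 1 and microglia 2, and the other genes reach 100% in every library.

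Sharing between libraries was uneven. Of the 49 sites 40 were listed in 1 library, 5 in 2, 2 in 3 and 2 in all 4. A total of 9 sites, 18.4%, were thus in 2 or more libraries, beside 9.72% of all distinct named-gene sites, and 4 sites, 8.16%, in 3 or more, beside 2.59%. Without Ddx17, 5 of 29 helicase sites were in 2 or more libraries. No difference in sharing from all named genes or their sites, here or below, was tested. Among genes, 9 of 16 had a site in 2 or more libraries, beside 38.9% of named genes. Ddx17, Ddx19a and Ddx21 had a site in all 4, beside 2.37% of named genes. These 3 genes were picked with earlier results of these data known.

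Sites of both astrocyte libraries that neither microglia library listed numbered 0 among helicases, beside 0.651% of named-gene sites. Sites of both microglia libraries that neither astrocyte library listed also numbered 0, beside 0.396%. At these background shares a count of 0 among 49 sites says nothing particular about the helicases. Astrocyte 1 and microglia 2 shared 7 sites, 35% of the 20 in astrocyte 1 and 25.9% of the 27 in microglia 2, of which 4 were in Ddx17. Over all named genes these libraries shared 12.9% and 16.3% of their sites. The astrocyte pair shared 4 sites, 20.0% of those of astrocyte 1 and 33.3% of those of astrocyte 2, beside 4.97% and 10.1% over all named genes. The microglia pair shared 2, those in Ddx19a and Ddx21, which were 40.0% of those of microglia 1 and 7.41% of those of microglia 2, beside 21.7% and 6.11% over all named genes.

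In the replicate 1 libraries alone astrocyte 1 listed 17 helicase sites that microglia 1 did not, microglia 1 listed 2 that astrocyte 1 did not, and 3 were shared. The shared sites were 15.0% of those of astrocyte 1 and 60.0% of those of microglia 1, beside 6.95% and 31.2% over all named genes, so most sites of astrocyte 1 were unshared in either case. The 2 sites of microglia 1 alone were the Ddx17 site at 79422857 and a Ddx52 site. Of the 10 helicase genes with a site in either of these libraries, 6 had more in astrocyte 1, 1 had more in microglia 1 and 3 had as many, while 77% of all named genes with a site in either had more in astrocyte 1. In the replicate 2 libraries 3 of 14 genes had more sites in astrocyte 2 and 7 had more in microglia 2, beside 32.7% of named genes with more in astrocyte 2. The direction of the helicase genes in each replicate was that of all named genes.

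Other RNA helicases, whose names do not begin with Ddx or Dhx, were listed about as often as protein-coding genes in general. Of 18 such genes in the RefSeq names, 4 had a site, beside the 22% of protein-coding genes given above, each with 1: Snrnp200, the Brr2 helicase of the spliceosome, at 44.4%, Ascc3 at 66.7% and Znfx1 at 66.7%, all in astrocyte 1, and Mov10 at 100% in microglia 2. The DEAD box translation factors Eif4a1, Eif4a2 and Eif4a3 had none listed, nor had Upf1 of nonsense-mediated decay.

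Partners of the helicases in translation and decay had sites in 10 of 16 genes, beside 22% of protein-coding genes, a difference that was not tested. They were 4, 4, 1 and 6 genes of astrocyte 1, astrocyte 2, microglia 1 and microglia 2. Eif4g1, the scaffold that binds Eif4a, had a site at 100% in astrocyte 1 and microglia 1. Dcp1a, a decapping cofactor, had 3 distinct sites, at 100% in astrocyte 1 and at 60.0% and 80.0% in microglia 2. Eif4g2 had levels of 17.2% and 75.0% in astrocyte 2 and 14.0% in microglia 2. Partners in splicing, export and the exon junction had sites in 8 of 22 genes, beside the same 22% of protein-coding genes. By library they were 6, 3, 1 and 4 genes in the same order. Drosha, the microprocessor enzyme that Ddx17 and Ddx5 assist, had 1 site, at 100% in microglia 1 and 80.0% in microglia 2. Casc3, which joins the exon junction complex around Eif4a3, had sites in 3 libraries, at 100% in astrocyte 1 and astrocyte 2 and at 62.5% in microglia 2. No gene of these lists had more than 3 distinct sites.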

How the data were processed

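GLORI libraries of 2 astrocyte and 2 microglia samples were analysed from 1 table of called sites each, with 7 columns and no header. Per the series' design text GLORI-tools called the sites, and the submitters' processing notes name STAR and mm39, with no version or calling threshold. The authors deposited each level as a fraction without coverage, so depth is unknown and no level has a counting interval; levels are given as a percent. No level was below 10.0%.

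Sites were matched by chromosome, position (end column) and strand. Names and the family size came from a RefSeq table of GRCm38.p6. Levels limited to 0.01 to 0.99 were turned into log2 odds and fitted with limma 3.58.1 in R 4.3.3 with no replicate block, over sites that all 4 libraries listed. Of 1100 such sites, 746 tied within each type and were left out. P-values were adjusted by Benjamini-Hochberg, threshold 0.05. The fit was also run on simulated independent values with a common SD and changes shared by both libraries of a type. That run does not cover types whose libraries have differing marker sites. Exact permutation tests used scipy 1.17.1. Shares carry Clopper-Pearson 95% intervals. Genes described in full had 3 or more distinct sites, sites in 3 or more libraries or a position in 2 or more; Ddx17, Ddx19a and Ddx21 were added by name, and the others are given briefly. Members, markers and lists were chosen with earlier results of these data known. The p-values set the difference by label against the spread between libraries of the same label. By marker sites the libraries of each label differ, so that spread may hold a difference between cell types as well as technical variation.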

Additional observations from a re-analysis of the deposited data

How the results depend on the processing

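The count of 0 sites called by limma held in each alternative that kept all 4 libraries. These tested 48 to 1100 sites, with between 2 and 19 at an unadjusted p under 0.05. All used the labels, and by marker sites the libraries of each label differ. A difference between the cell types thus enters the spread within a label, and the 0 calls say nothing on astrocytes against microglia. The 4 alternatives without 1 library take all their spread from the type that keeps 2 and say nothing on stability. The numbers are not known to pair libraries. The correlation of same-numbered deviations was -0.0703 over 354 sites, and with a replicate block limma called 0 of 354. By marker sites the deviations within each label may also hold a difference between cell types, so neither value can decide on pairing. The Ddx19a difference was -0.87 in log2 odds in every alternative that kept all 4 libraries, with adjusted p between 0.455 and 0.899 (limma). These alternatives reuse the same 4 levels, so its value could not change. Without 1 library it lay between -1.51 and -0.22, again by label, so its sign gives no direction between the cell types. Distinct helicase sites numbered 49, 28 with GAC sites only, 30 to 47 without 1 library (30 without microglia 2) and 22, in 10 genes, in the replicate 1 libraries alone, an alternative chosen after seeing the data. Sites of both astrocyte libraries and no microglia library numbered 0, against 1 to 12 without 1 library (7 without astrocyte 1, 12 without astrocyte 2, 1 without either microglia library) and 17 in replicate 1 alone. The counterpart for microglia was 0, against 0 to 19 without 1 library (19 without microglia 1, 2 without microglia 2) and 2 in replicate 1 alone. With fewer libraries to satisfy, these counts cannot fall by construction. Without read depth, absence from a list is no measure of an unmethylated base.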

Other observations

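A site outside named genes was listed in astrocyte 1 on the minus strand of chromosome 15 at position 79415350, between Ddx17 sites, at 80.0%. It falls in the stretch 2000 to 4000 bases from the 3′-most Ddx17 site, where no site carried the name Ddx17. Its letters were in lower case. No other site without the name of its helicase gene was listed within 2000 bases of the outermost sites of any of the 16 genes.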
